A study of Mus musculus with 14 samples.

Results

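Messenger RNA of 39 genes of the unfolded protein response and of the integrated stress response was followed in 14 mouse RNA-seq libraries. The genes were chosen by symbol for their known roles, and all 39 had a row among the 24421 gene rows of each experiment. They were grouped into 7 arms, from stress sensors through transcription factors to the chaperones, degradation factors and metabolic enzymes that those factors control. The first experiment set 4 samples of brown adipose tissue (BAT), which oxidises fuel to keep the body warm, against 4 samples of perigonadal white adipose tissue (WAT), the main store of fat. Both tissues came from C57BL/6N mice, 22 weeks old, housed at ambient temperature, whose diet had carried 60% of its energy as fat during 14 weeks, and no group on another diet was part of the comparison. The second experiment used a single BAT cell line, differentiated with insulin, T3, dexamethasone and IBMX (rosiglitazone is listed for beige cells). From day 7, 3 samples received 100 µM blebbistatin, which blocks the ATPase of class II myosins, and 3 received its DMSO vehicle, each during 24 h. Replicates are numbered in the labels, with no word on separate animals or cultures, so each p-value reflects sample-to-sample spread alone, and that spread may be technical.

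The unfolded protein response is set off when unfolded protein accumulates in the endoplasmic reticulum (ER), where secreted and membrane proteins are folded. The sensors IRE1 (gene Ern1), PERK (Eif2ak3) and ATF6 (Atf6) then switch on the transcription factors XBP1, ATF4 and cleaved ATF6, which raise chaperones, disulfide isomerases and the machinery of ER-associated degradation. The integrated stress response is the wider pathway that runs through ATF4: PERK, the amino acid sensor GCN2 (Eif2ak4) and other kinases phosphorylate the translation factor eIF2, general translation slows, and ATF4 is made. ATF4 targets include the factors Ddit3 (CHOP), Atf3 and Atf5, feedback genes and enzymes of amino acid synthesis. IRE1 acts by splicing Xbp1 messenger RNA, ATF6 by cleavage and the kinases by phosphorylation. None of these steps is visible in gene-level read counts.

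The promoters of these genes are shown first because known DNA elements of the response stand in some of them. Promoter sequences covering 250 bases before and 50 bases after the RefSeq start site (build GRCm38.p6) were found for 35 of the 39 genes. Both strands were searched for the ER stress element (ERSE: CCAAT and CCACG with any 9 bases between them), for ERSE-II (ATTGG and CCACG with any 1 base between them), for the core of the unfolded protein response element (UPRE, TGACGTGG) and for the C/EBP-ATF response element (CARE, TGATGCAA). ERSE stood in the promoters of 9 of these 35 members (25.7%), against 0.137% of all 27025 genes with a promoter sequence of that length. The 9 were Hspa5, Hsp90b1, Calr, Canx, Dnajc3, Creld2, Pdia6, Syvn1 and Derl3. ERSE-II stood in Dnajb11 and Herpud1 (5.71% of members, 0.0444% of all genes). CARE stood in Herpud1, Atf3 and Chac1 (8.57% of members, 1.03% of all genes). The UPRE core was in none of the members' windows and in 0.714% of all genes. A match is a string of letters and no measured binding site, and no binding was measured in these samples. The 3 promoters below stand for the patterns found: Hspa5 with an ERSE, Herpud1 with both an ERSE-II and a CARE, and Atf3 with a CARE alone. They are written 5′ to 3′ along the transcribed strand of each gene, with the matched motif letters in capitals.
Hspa5, chr2:34771840-34772139, GRCm38.p6, plus strand: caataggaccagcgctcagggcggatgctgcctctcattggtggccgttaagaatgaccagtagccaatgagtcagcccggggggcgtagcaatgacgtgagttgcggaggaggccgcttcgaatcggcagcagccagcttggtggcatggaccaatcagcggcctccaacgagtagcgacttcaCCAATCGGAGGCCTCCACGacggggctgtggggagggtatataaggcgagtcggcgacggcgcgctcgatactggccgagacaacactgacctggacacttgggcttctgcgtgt
Herpud1, chr8:94386179-94386478, GRCm38.p6, plus strand: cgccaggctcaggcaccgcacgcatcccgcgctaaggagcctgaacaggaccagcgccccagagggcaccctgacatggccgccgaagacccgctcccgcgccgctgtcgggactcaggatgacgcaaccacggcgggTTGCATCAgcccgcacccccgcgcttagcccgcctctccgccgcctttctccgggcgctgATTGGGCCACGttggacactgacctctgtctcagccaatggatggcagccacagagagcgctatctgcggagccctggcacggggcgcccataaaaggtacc
Atf3, chr1:191183284-191183583, GRCm38.p6, minus strand: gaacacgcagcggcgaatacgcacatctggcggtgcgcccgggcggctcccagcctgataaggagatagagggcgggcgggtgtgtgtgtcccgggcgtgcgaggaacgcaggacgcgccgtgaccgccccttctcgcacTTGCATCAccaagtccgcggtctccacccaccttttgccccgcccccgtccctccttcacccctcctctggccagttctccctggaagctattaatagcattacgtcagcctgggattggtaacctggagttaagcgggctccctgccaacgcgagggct
The capitals in Hspa5 are an ERSE on the printed strand, 65 to 47 bases before the start site. In Herpud1 the first capitals are a CARE read on the other strand, 112 to 105 bases before the start site, and the second are an ERSE-II 52 to 42 bases before it. The capitals in Atf3 are a CARE read on the other strand, 110 to 103 bases before the start site.

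**Figure D1:**
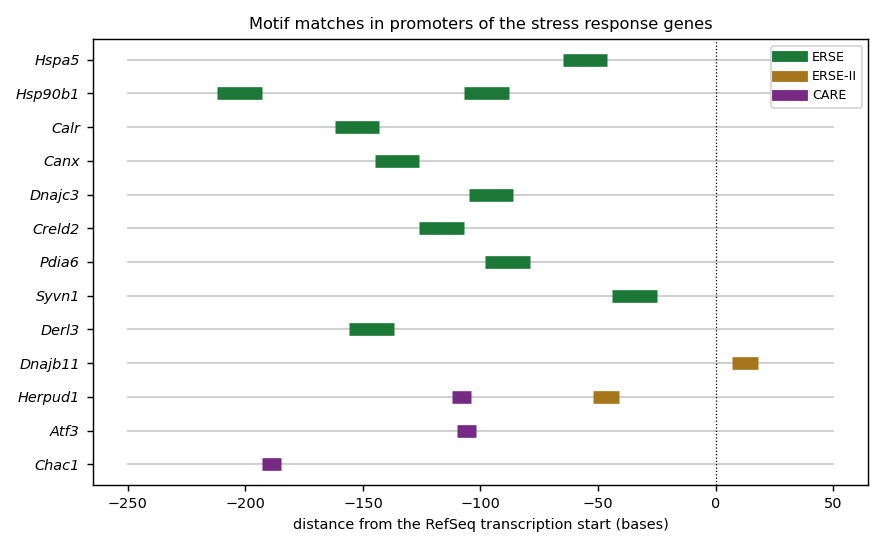
Places of ERSE (green), ERSE-II (brown) and CARE (purple) matches in the promoter windows of the 13 stress response genes that hold one, as distance in bases from the RefSeq start site (dotted line). Grey lines are the windows searched; Hsp90b1 holds 2 ERSE matches, and Herpud1 is the only gene with matches to more than one motif.

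Library size set how finely each gene could be read. BAT libraries held 1014959 to 2335058 reads in genes, against 6859404 to 16091372 in WAT libraries, while blebbistatin samples held 10920307 to 12978198 and vehicle samples 10685378 to 14176846. Of the mapped reads that the deposited values imply, 19.1% to 42.3% fell in genes in BAT, against 71.1% to 83% in WAT. Levels below are CPM, each gene's reads as a share of all reads in genes of the library, after TMM, a scaling of libraries that a few very abundant genes hardly move. Library names in the file headers are written in a different style for each tissue, and the tissue and any difference in library handling cannot be told apart. The defining genes of the tissues followed the labels: Ucp1, the uncoupling protein of brown fat, had 15518 ± 3360 CPM in BAT and 0.679 ± 0.619 CPM in WAT (SD, n = 4 each), and the leptin gene Lep had 319 ± 91.9 CPM in BAT and 1957 ± 761 CPM in WAT. Other cell types differed between the tissues as well. The summed level of 9 macrophage markers was 416 to 1143 CPM in BAT and 10364 to 13745 CPM in WAT, with all 9 called lower in BAT and none at 0. That of 10 skeletal muscle markers was 2210 to 34857 CPM in BAT, highest in BAT 4, and 24.8 to 47.6 CPM in WAT, with all 10 called higher. Of 6 endothelial markers all were higher in BAT (sum 1114 to 1305 CPM in BAT, 286 to 376 CPM in WAT), and of 6 fibroblast markers all were lower (sum 1523 to 2516 CPM in BAT, 5914 to 6983 CPM in WAT). General adipocyte markers, of which 2 of 5 were called higher, summed to 25802 to 36662 CPM in BAT and 16499 to 19506 CPM in WAT. In bulk tissue, fewer cells of a type and less RNA per cell cannot be told apart.

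Measured per length, the chaperone and calcium buffer Calr (calreticulin) was the most abundant member in every group. Its level was 89.4 ± 14.9 RPKM in BAT and 450 ± 24.8 RPKM in WAT (reads scaled by gene length and by all mapped reads, SD, n = 4 each), and 374 ± 33.3 RPKM with blebbistatin and 461 ± 44.7 RPKM with vehicle (n = 3 each). The order below it differed between the tissues. In BAT the transcription factor Atf5 was the second of the 39 at 85.2 ± 35.5 RPKM, whereas in WAT it ranked 10 at 58.2 ± 10.1 RPKM. Within single BAT libraries, Atf5 exceeded Calr in BAT 1 and lay below it in BAT 2, BAT 3 and BAT 4. Next by mean were Hspa5 (54.3 ± 19.6 RPKM), Hsp90b1 (45.1 ± 13.7 RPKM) and Atf4 (43.1 ± 18.4 RPKM). Hspa5 exceeded Hsp90b1 in every BAT library (66.5 and 58.8, 74.9 and 53.8, 33.3 and 29.0, 42.7 and 38.8 RPKM). Atf4 lay above Hsp90b1 in BAT 1 and BAT 4 and below it in BAT 2 and BAT 3. In WAT the order was Calr, then Hspa5 (253 ± 46.7 RPKM) and Hsp90b1 (232 ± 9.82 RPKM), which overlapped, then the disulfide isomerase Pdia3 (191 ± 9.40 RPKM). Atf3 ranked 26 in BAT at 3.76 ± 1.76 RPKM and 7 in WAT at 91.1 ± 15.6 RPKM. Derl3, a degradation factor typical of professional secretory cells, was the lowest member in each group. It had 1 read in BAT 1 and 0 in the other BAT libraries, where 3 reads, the limit that a count of 0 allows for counting error alone, stand for 1.66 to 3.26 CPM. In WAT it had 0.695 to 1.22 CPM, below those limits, and the filter on low counts kept it out of the test. With no filter limma called it lower in BAT, a call that rests on 1 read in all 4 BAT libraries together. RPKM divides by all mapped reads, so its values in BAT carry the low share of reads in genes, and the levels above are ordered only within a group.

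Between the tissues, most called members were lower in BAT. The ER folding machinery was lower in BAT than in WAT, from the sensors and Xbp1 to the chaperones and disulfide isomerases. Several genes of the ATF4 branch, Atf5, Ddit3, Trib3, Ddit4 and Asns, were higher in BAT, and so was the degradation factor Herpud1, although uncentred RPKM called none of them higher. Others that ATF4 is known to activate, Atf3, Sesn2, Psat1 and Phgdh, were lower. Of the 38 members tested, 7 were called higher in BAT, against 30.7% of all 12754 genes tested, and 24 were called lower, against 31.6%, where 62.3% of all genes were called in either direction. The 7 higher calls did not exceed the background share, and the share of lower calls was larger than that of all genes. The median log2 fold change of the members was -0.74, and that of all genes tested was -0.05. Calls are from limma with Benjamini-Hochberg adjusted p under 0.05, on log2(CPM + 0.5), a scale that understates the change of genes with few reads. The library values of 7 members were higher without overlap (28.4% of all genes) and those of 24 were lower without overlap (29.8% of all genes). On the deposited RPKM without centring, where the median gene shifts by -1.46 on the log2 scale, 0 members were called higher and 31 lower. That fit called 836 of all 12754 genes tested higher and 9478 lower. Centred on library medians, RPKM gave 8 members higher and 23 lower, and 4263 of all genes higher and 3531 lower. All directions given below are relative to the other genes of the library.

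**Figure D2:**
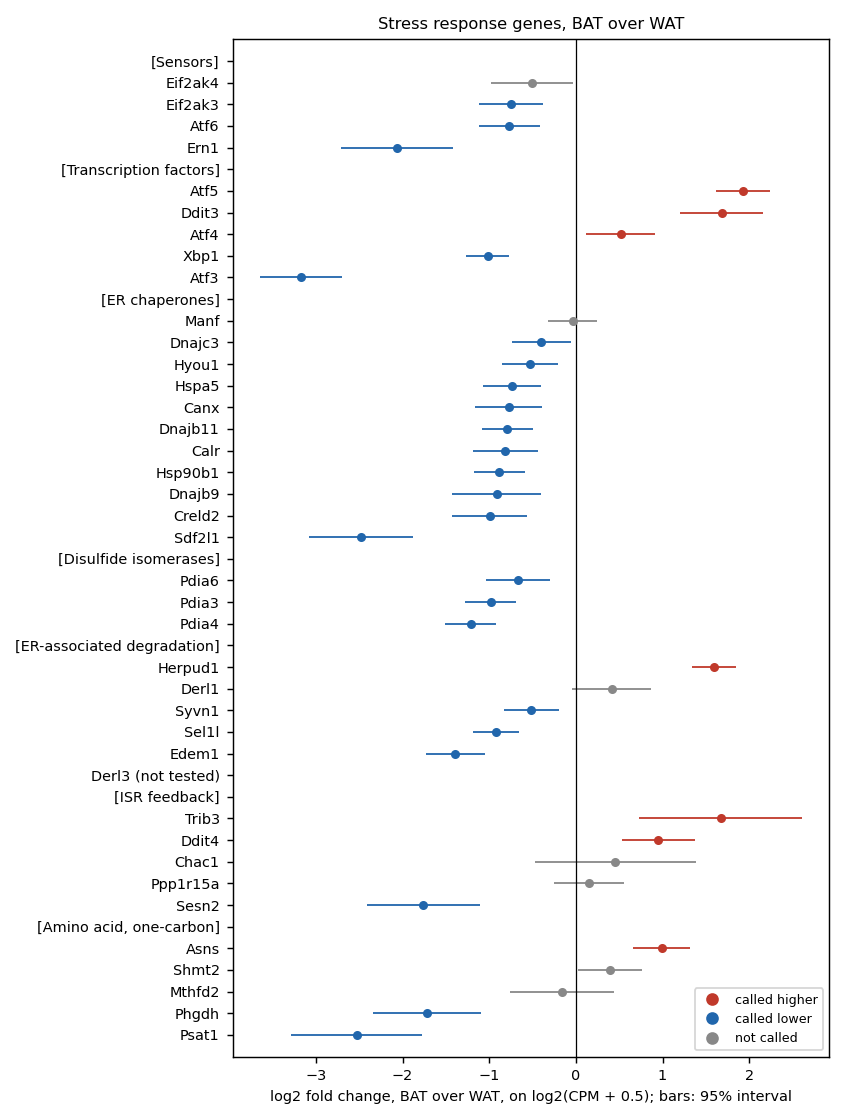
Log2 fold change of each member, BAT over WAT, on log2(CPM + 0.5), ordered by arm; points are limma estimates from 4 libraries a group, bars their 95% intervals, colours the call. All 11 chaperone estimates lie below 0, and the 7 called rises lie in the transcription factor, degradation, feedback and amino acid arms; on RPKM without centring Atf4, Ddit4, Asns, Shmt2, Derl1, Ppp1r15a and Chac1 turn below 0.

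Among the sensors, 3 of 4 were lower in BAT and 0 higher. Ern1, which encodes the kinase and nuclease IRE1, had 1.76, 1.66, 3.26 and 4.02 CPM in the BAT libraries and 11.2, 12.0, 13.1 and 12.2 CPM in the WAT libraries (log2 -2.06, SE 0.30, adjusted p = 6.94e-05). No BAT library came near a WAT library, but the BAT values rest on 3 to 6 reads each. Eif2ak3, which encodes PERK, had 21.6, 20.4, 15.2 and 20.1 CPM in BAT and 33.9, 27.0, 36.8 and 33.4 CPM in WAT (log2 -0.75, SE 0.17, adjusted p = 0.00198). Atf6, the membrane-bound factor freed by cleavage, had 50.7, 66.3, 60.8 and 39.5 CPM in BAT and 89.1, 88.5, 94.3 and 92.3 CPM in WAT (log2 -0.77, SE 0.16, adjusted p = 0.00123). Both genes kept their groups apart. Eif2ak4, which encodes the amino acid sensor GCN2, had 18.5, 19.9, 10.9 and 22.1 CPM in BAT and 26.2, 21.6, 23.7 and 27.8 CPM in WAT, groups that overlap (log2 -0.51, SE 0.22, adjusted p = 0.0610). It was called lower in 7 of 18 alternative settings, among them the fits without BAT 1, BAT 2, BAT 4 or WAT 2. The authors' edgeR comparison gave Eif2ak4 a log2 fold change of -0.65 with an adjusted p of 0.0168.

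The transcription factors split, with 3 of 5 higher and 2 lower. Xbp1, whose spliced form drives chaperone and degradation genes, was 2.03-fold lower in BAT: 82.8, 82.3, 76.0 and 74.3 CPM in BAT, against 151, 160, 163 and 167 CPM in WAT (log2 -1.02, SE 0.11, adjusted p = 8.51e-06). Its libraries agreed closely within each tissue and lay far apart between them. Atf3, an early stress-induced factor, showed the largest fall of all members: 28.2, 17.1, 17.4 and 32.1 CPM in BAT, against 227, 180, 181 and 262 CPM in WAT (9.02-fold lower, log2 -3.17, SE 0.22, adjusted p = 1.28e-07). The macrophage marker sum was also far lower in BAT (values above), and its part in the fall of Atf3 was not tested. Atf5, a relative of Atf4 known to regulate the stress response of mitochondria, was the largest rise: 563, 445, 417 and 489 CPM in BAT, against 115, 111, 127 and 148 CPM in WAT (3.81-fold higher, log2 1.93, SE 0.15, adjusted p = 2.75e-07). Each BAT library exceeded the highest WAT library by a wide margin. Ddit3, the gene of the growth arrest factor CHOP, followed with 102, 93.4, 63.0 and 54.9 CPM in BAT and 31.3, 20.5, 20.4 and 22.3 CPM in WAT (3.21-fold higher, log2 1.68, SE 0.22, adjusted p = 2.75e-05). Ddit3 shares part of its span with Mars on the opposite strand, and since the counting is not stated to use strand, reads of the pair cannot be told apart. Atf4 itself had 221, 189, 141 and 234 CPM in BAT and 123, 121, 127 and 174 CPM in WAT (log2 0.52, SE 0.18, adjusted p = 0.0257). Its groups overlap, since WAT 4 lies above BAT 3. The call was lost without TMM, without the count filter and without any one of BAT 1, BAT 2, BAT 4, WAT 1, WAT 2 or WAT 3 (adjusted p 0.0776 to 0.246), and on uncentred RPKM it turned to -1.02. The authors' deposited table gives Atf4 an adjusted p of 0.275.

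In the files (build mm9), Xbp1 (NM_001271730) spans chr11:5420644-5425996 on the plus strand, Atf3 (NM_007498) chr1:192994176-193007212 on the minus strand and Atf5 (NM_030693) chr7:52067626-52071028 on the minus strand. Herpud1 (NM_022331) spans chr8:96910400-96919258 and Hspa5 (NM_001163434) chr2:34627610-34632049, both on the plus strand. Reads were counted over the exons of each gene.

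Of the 11 ER chaperones and cochaperones, 10 were lower in BAT and 0 higher, with a median log2 fold change of -0.79. Hspa5 encodes BiP, the main chaperone of the ER lumen and the repressor of all 3 ER sensors. It had 433, 498, 486 and 382 CPM in BAT, against 692, 625, 850 and 843 CPM in WAT (1.67-fold lower, log2 -0.74, SE 0.16, adjusted p = 0.00124). Sdf2l1, a partner of BiP that is strongly induced by ER stress, had 8.81, 7.18, 4.34 and 12.0 CPM in BAT, against 33.5, 44.5, 47.1 and 57.4 CPM in WAT (5.58-fold lower, log2 -2.48, SE 0.27, adjusted p = 7.33e-06). Sdf2l1 stood apart from the rest of the arm in size, and in BAT it rests on 4 to 20 reads per library. The other 8 called members were 1.32- to 1.99-fold lower and none overlapped between the tissues: the lectin chaperones Calr and Canx, Hsp90b1 (GRP94, the HSP90 of the ER), Hyou1 (which recharges BiP with nucleotide), the BiP cochaperones Dnajb9, Dnajb11 and Dnajc3, and Creld2. Dnajc3 was the weakest of them (log2 -0.40, SE 0.16, adjusted p = 0.0415), and its call was lost without BAT 4, WAT 3 or WAT 4, with the replicate block and with centred RPKM (adjusted p 0.0573 to 0.107). Manf, a secreted stress-induced protein that binds BiP, had 84.6, 79.0, 96.6 and 77.0 CPM in BAT and 89.0, 75.5, 85.5 and 96.2 CPM in WAT (log2 -0.04, 95% interval -0.33 to 0.25, adjusted p = 0.814). BAT 4, the library with most muscle marker RNA, was the lowest BAT library for 16 of the 38 members, Hspa5, Canx, Hsp90b1 and Xbp1 among them. Without BAT 4, 24 members were called lower, with Dnajc3 lost and Eif2ak4 added, and 6 were called higher, with Atf4 lost. Of all 13570 genes tested without BAT 4, 4351 were called lower and 3921 higher.

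All 3 disulfide isomerases, the enzymes that form and reshuffle disulfide bonds in the ER, were lower in BAT. Pdia4 averaged 67.4 ± 9.22 CPM in BAT and 156 ± 8.32 CPM in WAT (log2 -1.21, SE 0.13, adjusted p = 7.32e-06). Pdia3, which works with Calr and Canx on glycoproteins, averaged 302 ± 39.9 CPM in BAT and 594 ± 28.3 CPM in WAT (log2 -0.98, SE 0.14, adjusted p = 4.59e-05). Pdia6 differed least, at 148 ± 26.9 CPM in BAT and 235 ± 36.3 CPM in WAT (log2 -0.67, SE 0.17, adjusted p = 0.00399). Pdia6 shares part of its span with Atp6v1c2 on the opposite strand. The 6 fibroblast markers, of a cell type that secretes matrix proteins, were lower in BAT as well. Of 5 plasma cell markers, of a cell type rich in ER (Xbp1 and Derl3 left out as members), 2 were tested and both were lower, with a sum of 7.60 to 15 CPM in BAT and 96.9 to 179 CPM in WAT. The same 5 markers were not low in the cell line (values below), so their sum may not be specific to plasma cells. The part of fibroblasts and plasma cells in the fall of the folding genes was not tested. The sum of 9 exocrine pancreas markers, a check for neighbouring secretory tissue, was 10.7 to 17.2 CPM in BAT and 20.7 to 36.3 CPM in WAT, with 5 of the 9 at 0 in each tissue.

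**Figure D3:**
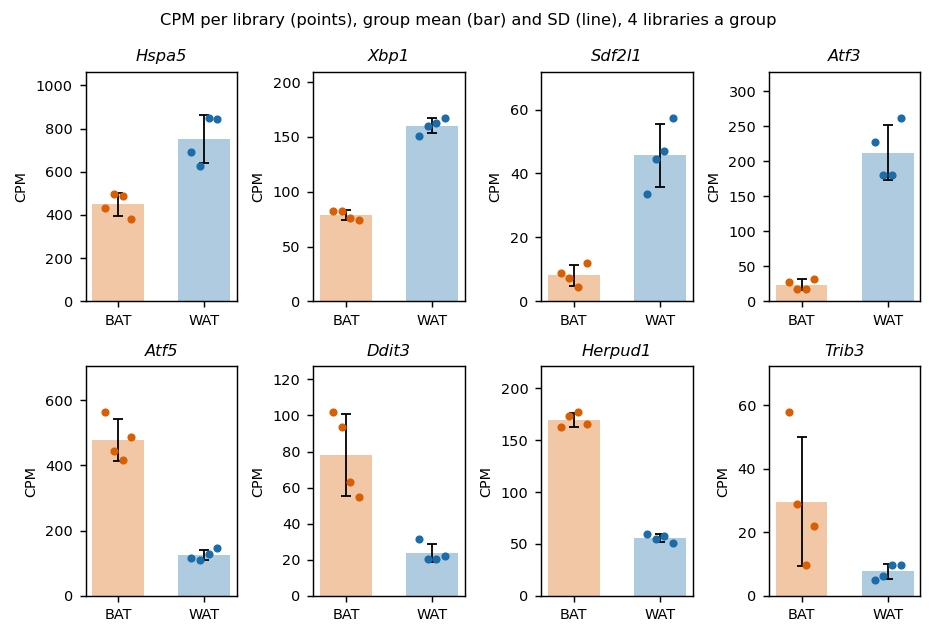
CPM of 8 members in each library (points), with the group mean (bar, from 0) and SD (line), BAT in orange and WAT in blue, 4 libraries each. Hspa5, Xbp1, Sdf2l1 and Atf3 are lower in every BAT library than in any WAT library; Atf5, Ddit3, Herpud1 and Trib3 are higher in every BAT library, though BAT 3 exceeds WAT 4 only narrowly for Trib3, and on uncentred RPKM none of these 4 was called higher.

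In ER-associated degradation, which pulls misfolded proteins out of the ER for destruction, 1 of 5 tested members was higher in BAT and 3 were lower. Herpud1, which organises the ubiquitin ligase of this pathway at the membrane, had 163, 173, 177 and 165 CPM in BAT, against 59.7, 55.2, 58.1 and 50.8 CPM in WAT (3.02-fold higher, log2 1.59, SE 0.12, adjusted p = 2.15e-07). Its 4 BAT values varied by 4.0% (SD over mean), the least of all members in that tissue. Its partners Sel1l and Syvn1 in the same complex went the other way. Sel1l, the scaffold, averaged 109 ± 8.33 CPM in BAT and 207 ± 14.9 CPM in WAT (log2 -0.92, SE 0.12, adjusted p = 3.13e-05), and Syvn1, the ligase HRD1, averaged 36.3 ± 5.58 CPM in BAT and 51.6 ± 2.46 CPM in WAT (log2 -0.51, SE 0.15, adjusted p = 0.00841). Edem1, which marks misfolded glycoproteins for removal, averaged 63.5 ± 9.34 CPM in BAT and 167 ± 27.0 CPM in WAT (log2 -1.39, SE 0.16, adjusted p = 8.97e-06). Derl1, a channel component, averaged 167 ± 36.1 CPM in BAT and 127 ± 33.2 CPM in WAT, within overlapping groups (log2 0.41, SE 0.21, adjusted p = 0.106). Herpud1 is also the member whose promoter holds both an ERSE-II and a CARE (sequence above). The other ERSE-II gene, Dnajb11, was called lower in BAT (log2 -0.79, adjusted p = 0.000255). The 8 tested genes with an ERSE were called lower, as were 16 of the other 30 members tested, and of the CARE genes Herpud1 was higher, Atf3 lower and Chac1 not called.

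Among the feedback and growth-arrest targets, 2 of 5 were higher in BAT and 1 lower. Trib3, a pseudokinase that restrains ATF4 and CHOP, had 57.7, 28.7, 9.77 and 22.1 CPM in BAT and 5.09, 6.20, 9.61 and 9.67 CPM in WAT (log2 1.67, SE 0.43, adjusted p = 0.00505). Its BAT libraries spread widely, and BAT 3 lay just above the highest WAT library. Ddit4 (REDD1), an inhibitor of the growth kinase mTORC1, had 223, 145, 117 and 176 CPM in BAT and 67.4, 99.1, 85.9 and 82.0 CPM in WAT (log2 0.95, SE 0.19, adjusted p = 0.00100). Sesn2 (sestrin), another inhibitor of mTORC1, went the opposite way with 8.37, 3.87, 4.34 and 2.68 CPM in BAT and 14.5, 16.3, 19.6 and 15 CPM in WAT (log2 -1.76, SE 0.30, adjusted p = 0.000271). Sesn2 rests on 4 to 19 reads in each BAT library. Ppp1r15a (GADD34), which brings phosphatase back to eIF2, averaged 32.3 ± 7.42 CPM in BAT and 28.7 ± 4.08 CPM in WAT (log2 0.15, SE 0.18, adjusted p = 0.502). Chac1, which breaks down glutathione, averaged 9.85 ± 6.85 CPM in BAT and 6.31 ± 2.60 CPM in WAT (log2 0.45, SE 0.43, adjusted p = 0.374). Neither passed the test, and the interval for Chac1, -0.48 to 1.39, leaves room for changes in both directions.

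The 5 enzymes of amino acid synthesis and one-carbon metabolism did not move as a block, with 1 higher, 2 lower and 2 not called. Asns, which makes asparagine, had 62.6, 53.0, 63.0 and 45.5 CPM in BAT and 27.4, 25.9, 26.8 and 31.1 CPM in WAT (log2 0.99, SE 0.15, adjusted p = 9.98e-05). The enzymes of the early steps of serine synthesis were lower. Phgdh had 27.8, 17.7, 15.2 and 15.4 CPM in BAT and 38.1, 58.6, 109 and 59.4 CPM in WAT (log2 -1.72, SE 0.29, adjusted p = 0.000234). Psat1 had 40.5, 11.6, 18.5 and 11.4 CPM in BAT and 103, 101, 141 and 82.7 CPM in WAT (log2 -2.53, SE 0.35, adjusted p = 5.72e-05). Both genes had their highest BAT value in BAT 1 and their highest WAT value in WAT 3, with no overlap between the tissues. BAT 1 was the highest BAT library for 15 of the 38 members, Atf5, Ddit3, Trib3 and Ddit4 among them, and it also had the highest macrophage marker sum of the BAT libraries (1143 CPM, against 416 to 477 CPM in the other 3). The mitochondrial enzymes Shmt2 and Mthfd2, which pass serine carbon into the folate cycle, were not called. Shmt2 had 48.0, 32.0, 29.3 and 32.8 CPM in BAT and 28.0, 26.8, 24.6 and 26.3 CPM in WAT, without overlap (log2 0.39, SE 0.17, adjusted p = 0.0616). It was called higher by edgeR's quasi-likelihood test, by DESeq2 and with centred RPKM, and lower with uncentred RPKM (log2 -1.11). Shmt2 shares part of its span with Ndufa4l2 on the opposite strand. Mthfd2 had 29.1, 10.5, 13.0 and 17.4 CPM in BAT and 19.3, 14.7, 19.9 and 19.5 CPM in WAT (log2 -0.16, SE 0.27, adjusted p = 0.628).

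A further 103 genes of the same pathways were listed by their known roles. Of 101 tested, 29 were higher in BAT, against 30.7% of all genes tested, and 36 were lower, against 31.6%. Both counts were near these shares, which also apply to each smaller list below. The median log2 fold change was -0.22, and that of all genes tested was -0.05. In the ER folding list, 11 of 20 were lower and 1 higher. Its largest fall was P4hb (PDI, the most abundant disulfide isomerase): 195, 173, 131 and 179 CPM in BAT, against 569, 610, 639 and 664 CPM in WAT (log2 -1.88, SE 0.15, adjusted p = 3.73e-07). Among other regulators of the unfolded protein response 7 of 12 were lower and 2 higher. Wfs1, an ER membrane protein mutated in Wolfram syndrome, averaged 32.2 ± 12.2 CPM in BAT and 249 ± 46.9 CPM in WAT (log2 -2.98, SE 0.22, adjusted p = 2.70e-07). Creb3l2, an ER-bound factor related to Atf6, averaged 7.64 ± 2.62 CPM in BAT and 26.2 ± 4.96 CPM in WAT (log2 -1.76, SE 0.26, adjusted p = 7.34e-05). Further degradation genes gave 5 of 15 lower and 2 higher.

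In the lists of the integrated stress response, calls went in both directions, as they did among all genes tested (30.7% higher, 31.6% lower). Of 18 further genes of that response, 8 were higher in BAT and 3 lower. Cebpb, a dimer partner of ATF4 and a regulator of fat cell differentiation, averaged 514 ± 62.7 CPM in BAT and 79.9 ± 15.9 CPM in WAT (log2 2.69, SE 0.16, adjusted p = 3.86e-08). Of 16 tested ATF4-linked amino acid genes 4 were higher and 6 lower, Mthfd1l being the largest fall (1.68 ± 1.83 CPM in BAT, 7.62 ± 1.14 CPM in WAT, log2 -2.20, SE 0.46, adjusted p = 0.00118). Of 12 tRNA synthetases 5 were higher and 4 lower. The mitochondrial protein-folding list stood out, with 7 of 8 higher and 0 lower in BAT and a median log2 fold change of 2.08. Clpp, a mitochondrial protease, averaged 242 ± 44.8 CPM in BAT and 29.2 ± 5.95 CPM in WAT (log2 3.03, SE 0.18, adjusted p = 3.28e-08). The mitochondrial chaperone Hspa9 averaged 1599 ± 363 CPM in BAT and 299 ± 22.1 CPM in WAT (log2 2.39, SE 0.18, adjusted p = 3.08e-07), and its cochaperone Dnaja3 averaged 346 ± 89.1 CPM in BAT and 47.4 ± 2.05 CPM in WAT (log2 2.82, SE 0.18, adjusted p = 6.01e-08). Brown fat is rich in mitochondria, and the brown fat markers were far higher in the same libraries (6 of 6 called, sum 17815 to 26849 CPM in BAT, 14.4 to 21.1 CPM in WAT). The part of this difference between the tissues in the rises above was not tested.

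In the cells grown in the dish, limma called few members after 24 h of blebbistatin, as it called few of all genes. Atf3 was higher and Xbp1 lower, and no chaperone, isomerase, degradation factor or metabolic enzyme passed the test. Of 39 members tested, 1 was called higher, where 0.133% of all 12808 genes were, and 1 lower, where 0.734% of all genes were (0.867% in either direction). The median log2 fold change of the members was -0.03, and that of all genes was 0.01. The library values of 8 members were higher without overlap (9.62% of all genes) and those of 8 were lower without overlap (9.99% of all genes). At an unadjusted p under 0.05, limma gave 8 members higher and 7 lower. The share of all genes at that limit was not counted. Counts at an unadjusted p, here and below, therefore have no background to be read against. DESeq2 called 4 members higher (Atf3, Atf5, Ern1 and Trib3) and 3 lower (Xbp1, Manf and Pdia4). Of all 12808 genes DESeq2 called 138 higher and 359 lower, more than limma did. The quasi-likelihood test of edgeR called the same 2 members as limma, and 18 of all genes higher and 97 lower. The authors' deposited table has Atf3, Atf5, Ern1 and Trib3 higher and Xbp1 lower at an adjusted p under 0.05. Without vehicle 1, which held 3.45% of its reads in the ribosomal precursor Rn45s against at most 1.03% in the other samples, 2 members were called higher (Atf3 and Ern1) and 0 lower. That fit called 54 of all 13007 genes higher and 267 lower.

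**Figure D4:**
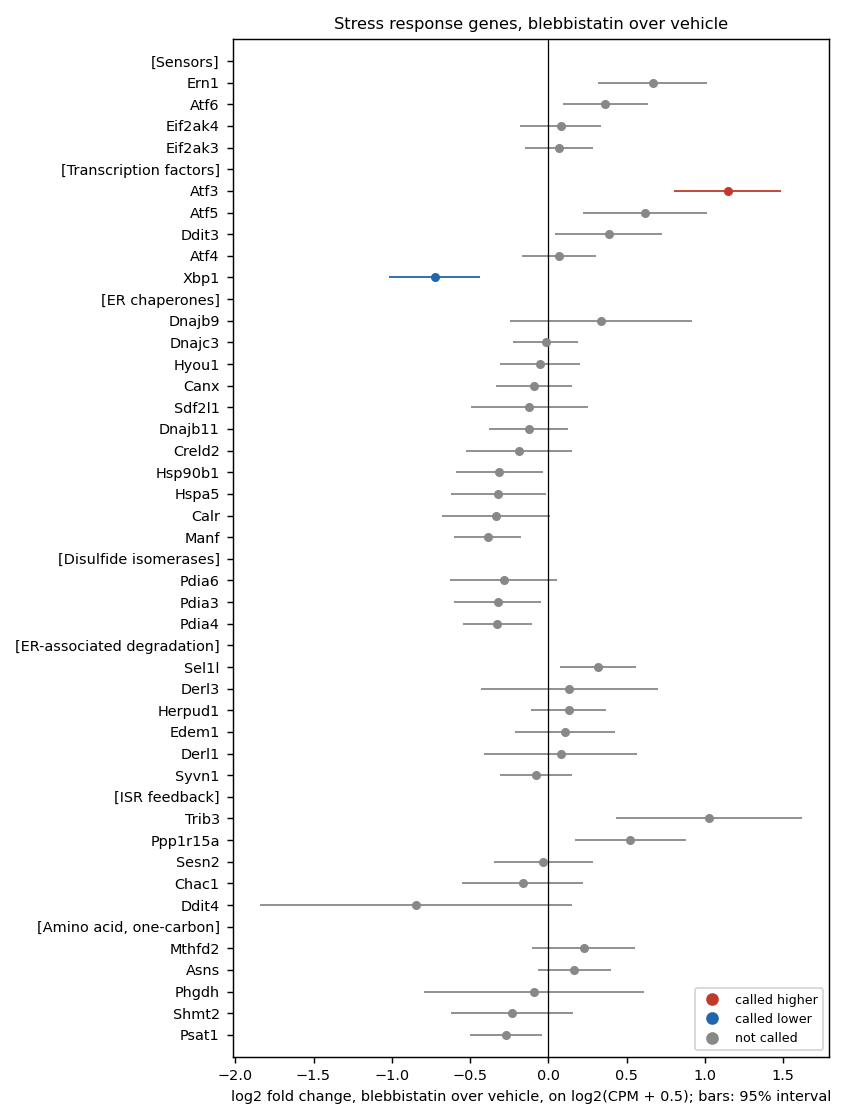
Log2 fold change of each member, blebbistatin over vehicle, on log2(CPM + 0.5), ordered by arm; points are limma estimates from 3 libraries a group, bars their 95% intervals, colours the call. Atf3 (1.15) and Xbp1 (-0.73) are the called members, and 10 of the 11 chaperone estimates lie below 0, of which Hyou1 without TMM, Sdf2l1 without blebbistatin 3 and Dnajc3 in 3 settings turn above 0.

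Both called members were transcription factors. Atf3 had 11.6, 11.4 and 12.4 CPM in the blebbistatin samples, against 4.72, 4.91 and 5.56 CPM in the vehicle samples (2.21-fold higher, log2 1.15, SE 0.15, adjusted p = 0.0192). The values within each group were close, on 134 to 153 reads per blebbistatin library and 50 to 69 per vehicle library. The Atf3 call was lost without blebbistatin 1, blebbistatin 2, vehicle 2 or vehicle 3 (adjusted p 0.0635 to 0.150), while its log2 fold change stayed between 0.97 and 1.22 in all 16 alternatives. Xbp1 had 88.2, 100 and 75.1 CPM with blebbistatin, against 149, 150 and 135 CPM with vehicle (1.65-fold lower, log2 -0.73, SE 0.13, adjusted p = 0.0468). No blebbistatin sample reached a vehicle sample, but the call stood near the threshold: it held in 5 of 16 alternatives and was lost when any single sample was left out (adjusted p 0.0518 to 0.287). Its log2 fold change lay between -0.83 and -0.63 throughout. Atf4 had 285, 266 and 252 CPM with blebbistatin and 271, 256 and 240 CPM with vehicle (log2 0.07, 95% interval -0.17 to 0.31, adjusted p = 0.864). Ddit3 had 102, 72.9 and 88.1 CPM with blebbistatin and 72.9, 68.9 and 58.3 CPM with vehicle (log2 0.38, SE 0.15, adjusted p = 0.323). Atf5, the second most abundant member per length in the blebbistatin samples, had 585, 515 and 789 CPM there and 453, 393 and 368 CPM with vehicle (log2 0.62, SE 0.17, adjusted p = 0.178). The groups of Atf5 did not overlap, and those of Atf4 did.

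None of the sensors was called by limma, and all 4 estimates lay above 0. Ern1 had 53.2, 40.0 and 52.2 CPM with blebbistatin and 34.6, 27.1 and 29.1 CPM with vehicle (log2 0.67, SE 0.15, adjusted p = 0.111). Its groups did not overlap, and the call appeared with DESeq2 (adjusted p = 0.00785) and without vehicle 1 (adjusted p = 0.0494). Atf6 had 140, 120 and 151 CPM with blebbistatin and 114, 98.9 and 104 CPM with vehicle (log2 0.36, SE 0.12, adjusted p = 0.252). Eif2ak3 had 40.4, 41.2 and 40.3 CPM with blebbistatin and 39.2, 38.1 and 38.9 CPM with vehicle (log2 0.07, SE 0.10, adjusted p = 0.847). That gene was the most even of the sensors, with a log2 interval of -0.15 to 0.29. Eif2ak4 had 43.5, 41.6 and 40.9 CPM with blebbistatin and 36.5, 38.7 and 44.5 CPM with vehicle, and the groups overlapped (log2 0.08, SE 0.11, adjusted p = 0.851).

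Of the 11 chaperones 0 were called by limma or by edgeR's quasi-likelihood test and 1, Manf, by DESeq2, and 3 fell below an unadjusted p of 0.05 in limma, all with lower values under blebbistatin. Hspa5 had 671, 638 and 541 CPM with blebbistatin and 688, 805 and 815 CPM with vehicle (log2 -0.32, 95% interval -0.62 to -0.02, adjusted p = 0.366). Blebbistatin 1 and vehicle 1 nearly met. The log2 fold changes of the arm ran from -0.39 (Manf) to 0.34 (Dnajb9), with a median of -0.13, and 4 of the 11 genes did not overlap between the groups, namely Hspa5, Hsp90b1, Calr and Manf. All 3 disulfide isomerases had estimates between -0.33 and -0.29, none called by limma. Pdia4 had 203, 203 and 210 CPM with blebbistatin and 242, 265 and 268 CPM with vehicle (log2 -0.33, SE 0.10, adjusted p = 0.201). Degradation genes gave 0 calls among 6 in limma and in both count tests, and the largest estimate was that of Sel1l (log2 0.32, SE 0.11, adjusted p = 0.270). Fibroblast markers summed to 5435 to 6029 CPM with blebbistatin and 6781 to 11457 CPM with vehicle, with 0 of 6 called. Their part in the lower folding values was not tested. Macrophage, muscle, endothelial and exocrine pancreas markers were low in both groups. Their largest sums were 63.1, 5.00, 4.89 and 6.44 CPM with blebbistatin, and 61.1, 7.44, 6.14 and 5.48 CPM with vehicle. Plasma cell markers were not low, with sums of 70.4 to 115 CPM with blebbistatin and 63.4 to 99.2 CPM with vehicle. The largest sum of each group lay within the range of WAT tissue (96.9 to 179 CPM) and the smallest below it. Every cell sample exceeded every BAT tissue library, though cells and tissues were scaled separately. Only 1 of the 5 plasma cell markers was tested in the cells, and it was not called. General adipocyte markers summed to 8456 to 12399 CPM with blebbistatin and 8314 to 11510 CPM with vehicle, and 6 brown fat markers to 244 to 300 CPM with blebbistatin and 164 to 340 CPM with vehicle. Of the 6 brown fat markers, limma called 1 higher with blebbistatin and 0 lower. Their estimates lay above 0 for 4 and below 0 for 2, with a median log2 fold change of 0.48, and Ucp1 had the lowest. Ucp1, the defining gene of brown fat, was present but low, at 10.7 ± 3.16 CPM with blebbistatin and 67.3 ± 50.2 CPM with vehicle (SD, n = 3 each, log2 -2.35, limma adjusted p = 0.0907).

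**Figure D5:**
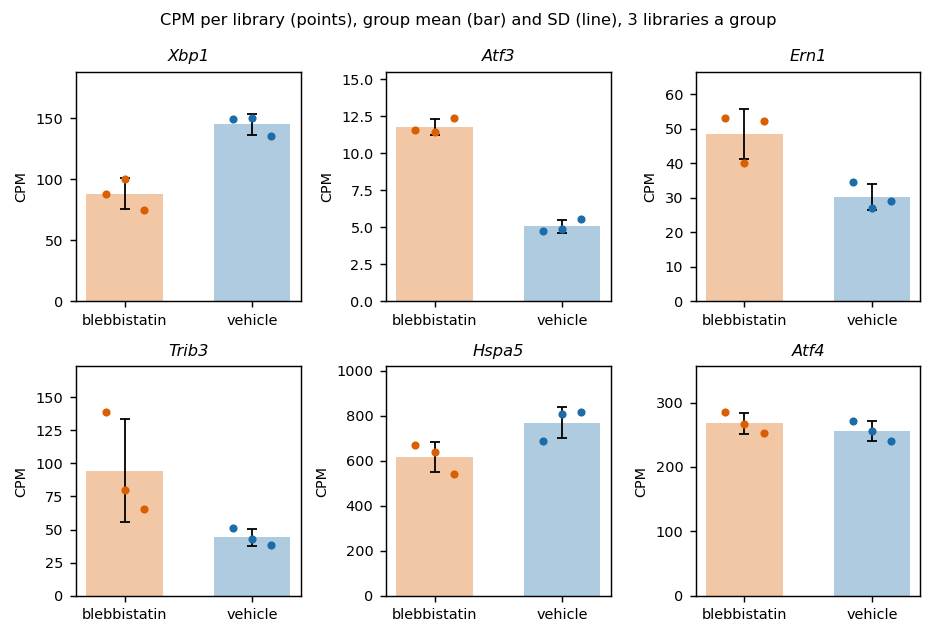
CPM of 6 members in each sample (points), with the group mean (bar, from 0) and SD (line), blebbistatin in orange and vehicle in blue, 3 samples each. Atf3 is higher and Xbp1 lower in every blebbistatin sample; Ern1 and Trib3 do not overlap but were not called by limma, and Atf4 overlaps.

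Among the feedback genes, 0 of 5 were called by limma or by the quasi-likelihood test, and 2 had an unadjusted p under 0.05. Trib3 had 139, 79.6 and 65.5 CPM with blebbistatin and 51.2, 42.7 and 38.3 CPM with vehicle (log2 1.03, SE 0.26, adjusted p = 0.137). All 3 blebbistatin samples lay above all vehicle samples, with the first far above the others, and of the tests run here DESeq2 alone called the gene (adjusted p = 0.00341). The authors' deposited table gives Trib3 an adjusted p of 0.000824. Ddit4 had 40.5, 35 and 18 CPM with blebbistatin and 102, 45.4 and 32.7 CPM with vehicle, a spread of 61.6% of the mean among the vehicle samples (log2 -0.85, SE 0.43, adjusted p = 0.494). Ppp1r15a had 41.8, 32.9 and 34.2 CPM with blebbistatin and 28.8, 25.6 and 21.1 CPM with vehicle (log2 0.52, SE 0.15, adjusted p = 0.208). Chac1 and Sesn2 overlapped between the groups (log2 -0.16 and -0.03).

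The amino acid and one-carbon enzymes had 0 calls among 5 in limma and in both count tests, with 1 at an unadjusted p under 0.05. Asns had 135, 139 and 124 CPM with blebbistatin and 109, 125 and 121 CPM with vehicle (log2 0.17, SE 0.10, adjusted p = 0.593). Psat1 had 254, 238 and 244 CPM with blebbistatin and 276, 300 and 313 CPM with vehicle (log2 -0.27, SE 0.10, adjusted p = 0.313). Psat1 was the one enzyme whose groups did not overlap. Phgdh had 97.3, 79.8 and 44.2 CPM with blebbistatin and 53.9, 93.7 and 82.3 CPM with vehicle (log2 -0.09, SE 0.30, adjusted p = 0.942). Shmt2 had 187, 181 and 192 CPM with blebbistatin and 290, 195 and 186 CPM with vehicle, where vehicle 1 stood alone (log2 -0.23, SE 0.17, adjusted p = 0.670). Mthfd2 had 133, 134 and 109 CPM with blebbistatin and 124, 108 and 90.7 CPM with vehicle (log2 0.22, SE 0.14, adjusted p = 0.609). Of the further pathway genes 0 of 102 were called by limma or by the quasi-likelihood test, and 16 fell below an unadjusted p of 0.05, 7 of them with higher values under blebbistatin and 9 with lower. DESeq2 called 3 of them, Gadd45a and Tmbim6 higher and Mthfd1l lower, where it called 138 of all 12808 genes higher and 359 lower.

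Set side by side, the comparisons share no samples. Xbp1 was lower in BAT than in WAT (log2 -1.02) and lower with blebbistatin than with vehicle (log2 -0.73). Atf3 was lower in BAT (log2 -3.17) and higher with blebbistatin (log2 1.15). Ern1 was lower in BAT (log2 -2.06), and its estimate under blebbistatin was 0.67 without a call. Of the 6 genes with the largest rises in BAT, Atf5 (1.93), Ddit3 (1.68), Trib3 (1.67), Herpud1 (1.59), Asns (0.99) and Ddit4 (0.95), the estimates under blebbistatin were 0.62, 0.38, 1.03, 0.13, 0.17 and -0.85, none of them called by limma. Whether the tissue and the drug differences differ from each other was not tested.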

How the data were processed

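RNA-seq libraries of BAT and WAT (4 each) and of BAT cells with blebbistatin or vehicle (3 each) were analysed. Per the submitters' processing notes STAR, HOMER, edgeR and build mm9 were used (versions not given in the sources used here). Exon reads were counted per gene with HOMER and condensed to 1 row a gene, per the file headers. The deposited signal is gene counts scaled by 1 factor per library; all values up to 1000 reads came out whole within 0.1 reads when that factor was undone. The authors also deposited RPKM, and log2 fold changes and p-values of their edgeR comparison. The RPKM header of the cells names 3 further libraries, not analysed here.

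The design foresaw limma on these values: limma 3.58.1 (R 4.3.3, trend and robust) was fitted on log2(CPM + 0.5) with TMM factors from edgeR 4.0.16, after filterByExpr (minimum count 10, minimum total 15), on all genes, called at a Benjamini-Hochberg adjusted p below 0.05. Alternatives were other scalings, no filter, pseudocounts of 0.1 and 2, RPKM + 0.1 as deposited and centred, edgeR's quasi-likelihood test and DESeq2 1.42.0 on the recovered reads, a replicate block and leaving out each library. The fit was also run on simulated data with few changed genes, in both directions. That run does not cover tissues that differ in most genes. Depth limits low genes, and intervals at 0 reads cover counting error only. Figures used matplotlib 3.10.9.

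The members and lists were chosen with earlier results of these data known. The rule for values per library was the 6 largest called rises and falls, and always the sensors, Xbp1, Atf4, Ddit3, Hspa5 and the amino acid enzymes; of other pathway genes, the 4 largest each way; Ucp1 and Lep checked the labels. Other members' values per library or group means were added after they were seen. Members whose rows overlap another gene's are Ddit3, Pdia4, Pdia6, Syvn1 and Shmt2.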

Additional observations from a re-analysis of the deposited data

Results flagged for a closer look

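Of 40 groups of 4 tissue libraries tested, 2 held a library far from the other 3 by Dixon's criterion, which chance alone flags in about 1 group in 20. Atf4 in WAT 4 had 174 CPM, against 121 to 127 CPM in the other WAT libraries. Mthfd2 in WAT 2 had 14.7 CPM, against 19.3 to 19.9 CPM in the others. Without WAT 4 the rise of Atf4 in BAT had a log2 fold change of 0.59 (limma adjusted p = 0.0147). The groups of 3 cell samples were not tested in this way.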

How the results depend on the processing

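Between the tissues, 23 of the 24 members called lower were called in all 18 alternatives (the exception was Dnajc3), and 6 of the 7 called higher in all but uncentred RPKM (the exception was Atf4). Uncentred RPKM called 0 members higher and turned Atf4 to -1.02, Asns to -0.53, Shmt2 to -1.11 and Ddit4 to -0.58 (log2). Higher genes made up 49.3% of all calls, against 8.11% with uncentred RPKM and 38.9% without TMM. Leaving out 1 library gave 6 to 7 members higher, 23 to 25 lower and 7000 to 8449 genes called in all. With blebbistatin, 111 genes were called, against 73 without TMM, 30 with uncentred RPKM and 497 with DESeq2, where 27.8% of calls were higher against 15.3%. Members called higher numbered 4 with DESeq2. Members called lower numbered 3 with DESeq2 and 0 without TMM, without the filter, with RPKM and with centred RPKM. Leaving out 1 library gave 13 to 321 genes called (321 without vehicle 1, 13 without vehicle 2), 0 to 2 members higher and 0 to 0 lower. The log2 fold change of Phgdh ran from -0.33 to 0.23 when 1 library was left out, above 0 without blebbistatin 3 (0.23) or vehicle 2 (0.07). The causes were not tested.

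Deviations from the group mean in samples of the same replicate number had r -0.04, -0.0027, -0.02 and 0.07 in the tissues. In the cells r was -0.49, 0.32 and -0.26. So few pairs cannot tell whether a replicate number marks a shared animal, culture or batch. With the replicate number as a block, 7 members were higher and 23 lower in BAT, where 3761 of all 12754 genes were higher and 3895 lower. With blebbistatin the block left 30 genes called in all, with 0 members higher and 0 lower. The low depth of BAT libraries limits Ern1, Sdf2l1, Sesn2 and Derl3 most.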
